A study of Mus musculus with 4 samples.

Results

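The Zfp genes located on mouse chromosomes 7, 8, 9, 10, 13 and 17 were compared between untreated astrocyte-enriched cultures and cultures kept for 15 h under oxygen–glucose deprivation (OGD). A gene was included when its name on the array began with Zfp followed by a number and its probe was placed on 1 of these 6 chromosomes. This gave 352 probes of 222 genes, out of 39429 probes of 29676 gene names on the array, and out of 616 Zfp probes of 384 Zfp genes. The family and the 6 chromosomes were chosen by their measured difference between untreated and OGD cultures on these same arrays, so the differences below are a description of the members and no test of them. Zfp28 had 1 probe on chromosome 7, which was included, and 1 on chromosome 5, which was not.

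The cultures were prepared from the cortex of newborn ICR mice and contained mainly astrocytes. Microglia had been depleted in all of them, untreated and OGD alike, with PLX3397 (pexidartinib), an inhibitor of the CSF1 receptor on which microglia depend. OGD, a culture model of ischemia, combined hypoxia with medium lacking glucose. There were 2 untreated and 2 OGD cultures, 1 array each, all on 1 slide. The study describes wells seeded from independent cultures of different pups, but the labels tie no array to a culture, so the spread between them may be technical. With 2 arrays against 2, an exact permutation test cannot give a p-value below 0.333, and the number of arrays limits the precision of every value.

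Genes named Zfp in the mouse encode zinc finger proteins. Most belong to the C2H2 class, in which each finger is held by a pair of cysteines and a pair of histidines and the fingers are joined in arrays that bind DNA. Many carry a KRAB domain, which recruits the corepressor Trim28 and, through it, histone methylation and heterochromatin proteins, and many of these silence transposable elements. Such genes arose by tandem duplication and lie in clusters of related neighbours. A few genes with Zfp names belong to other classes, among them Zfp36 and Zfp36l2, which encode RNA-binding proteins that promote mRNA decay.

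The array reads each gene through 60-base probes, and some probes of this family lie in its repeated part. A probe was counted as finger-coding when its letters, read in a sense frame without a stop, held a canonical element of a Krüppel-type finger: the linker between fingers, the histidine pair followed by the start of the linker, or the cysteine pair of the next finger. This was the case for 38 of the 352 member probes (10.8%), for 13 of the 264 Zfp probes on other chromosomes (4.92%) and for 99 of all 39429 probes (0.251%). The median log2 difference between OGD and untreated cultures was −0.90 over the 37 finger-coding member probes with a measurable signal and −0.95 over the other 298. Finger-coding probes of 4 members that recur below are shown in full, with the finger element in capitals, because neighbouring genes share this kind of sequence.
Zfp383, chr7:30700559-30700618 (mm9, + strand): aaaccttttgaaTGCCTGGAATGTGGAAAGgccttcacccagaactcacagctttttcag
Zfp27, chr7:30679753-30679812 (mm9, − strand): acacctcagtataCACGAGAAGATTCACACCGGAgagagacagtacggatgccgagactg
Zfp266, chr9:20304138-20304197 (mm9, − strand): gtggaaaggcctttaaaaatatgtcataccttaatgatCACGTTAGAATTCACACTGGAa
Zfp81, chr17:33471496-33471555 (mm9, − strand): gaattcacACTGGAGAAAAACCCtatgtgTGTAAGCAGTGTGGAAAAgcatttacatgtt

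For the genes with the largest differences whose probes held no finger element, the first 30 bases of the probe are shown, to identify which part of the gene was read. Zfp949 has a pair of probes because they gave different answers.
Zfp382, chr7:30919985-30920044 (mm9, + strand): ggcttcatgttttaatcactagattcagta
Zfp949 upstream, chr9:88462049-88462108 (mm9, + strand): agaatctcaacgacgctcagaagatgctgt
Zfp949 downstream, chr9:88465683-88465742 (mm9, + strand): agacctttaagccttagaatgcatcaagaa
Zfp563, chr17:33247575-33247634 (mm9, + strand): cagccccttgatagcattttctgatcagtg
Zfp324, chr7:13559087-13559146 (mm9, + strand): gttgagatacacctgtatgaacaataatat

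Related members can also share a probe target. Of the 352 member probes, 25 matched a probe of another gene name on the array at 45 or more of 60 bases. The neighbours Zfp764 and Zfp747 on chromosome 7 gave 1 such pair, with 51 identical bases over an aligned stretch of 59. The first 30 aligned bases are given with the 5 differing letters in capitals, and signals of such pairs may not be separate.
Zfp764, chr7:134547285-134547344 (mm9, − strand): ttcagatcagatCaCAgcTacagcTcccat
Zfp747, chr7:134516153-134516212 (mm9, − strand): ttcagatcagatTaTGgcAacagcCcccat
Over the 200 member genes whose probe had no such match, the median log2 difference was −0.92, against −0.95 over all 218 measured member genes.

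Values are given below as processed signal (arbitrary units) for each array and as normalized log2 signal, from which each array's 75th percentile had been subtracted. A log2 difference is OGD minus untreated on the normalized scale. The 75th percentile itself was 2135 and 2164 in the untreated arrays and 887 and 776 in the OGD arrays, and 73.7% and 73.0% of spots were well above background in untreated arrays against 66.2% and 64.5% in OGD arrays. Spike-in control RNA changed by −0.085 log2 between the groups while the percentile changed by −1.37. Scaling to the spike-ins moved the median of all probes from 0.18 to −1.11, so the differences below are relative to the bulk of the genes on the array. A fixed amount of total RNA was labelled for each array. In these bulk samples, fewer cells of a type and less RNA of a gene per cell cannot be told apart. All 9 astrocyte markers and all 8 microglial markers examined had a measurable probe, and the summed signal of the microglial markers was 4420 to 4971 in untreated and 5069 to 5979 in OGD arrays. Over the same arrays the signal sums were 297546 and 337130 against 167078 and 188037 for the astrocyte markers, and 51654 and 52758 against 14130 and 17301 for 7 oligodendrocyte markers. They were 11081 and 11759 against 3633 and 4531 for 4 neuronal markers, and 31055 and 39606 against 8923 and 9365 for 4 fibroblast markers. On the normalized scale the median log2 difference of these lists was 0.70 for astrocytes, 0.27 for microglia, 0.14 for oligodendrocytes, −0.45 for neurons and −0.20 for fibroblasts. The part of any of these cell types in the Zfp values was not tested.

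The signal of most Zfp genes was lower after OGD, by more than that of other genes. Of the 352 member probes, 335 of 218 genes were well above background in every array of at least 1 group and were measured further. Probe signal before normalization was lower in both OGD arrays than in both untreated arrays for 325 of the 335 probes (97.0%), against 89.7% of all probes measured. After normalization, 242 probes were lower without overlap of the groups, 66 were higher without overlap, and 27 overlapped. No share of all probes is given beside these counts, so nothing is read from them. With the fit over all 28258 measured probes, 221 member probes passed the adjusted p-value limit of 0.05 as lower, where 27.1% of all probes did, and 44 as higher, where 37.9% of all probes did. Since these arrays chose the family, nothing is read from these counts. The median log2 difference over the 218 genes, with the probe of the highest mean normalized log2 signal over the 4 arrays (the brightest probe) standing for each gene, was −0.95 (25th to 75th percentile −1.85 to −0.13) beside 0.16 (−0.56 to 0.68) over all 21064 measured gene names. The OGD arrays thus take part in the choice of the probe. With the probe brightest in the untreated arrays alone, a choice added after seeing the data that gave 4 genes another probe, the medians were −0.9993 and 0.15. With normexp background correction, which adds an offset and so shrinks the differences of dim probes, the medians were −0.31 and 0.51, and 152 member probes passed as lower and 120 as higher, where 19.0% and 62.8% of all probes did. With spike-in scaling, 320 passed as lower and 4 as higher, where 81.9% and 4.47% of all probes did. Each of the 4 possible pairings of 1 untreated with 1 OGD array gave a member median below 0, with an SD of 0.035 between them. The pairings reuse the same arrays, so this SD is not a spread between independent cultures.

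The 17 probes that stayed near background included the only probes of 4 genes, Zfp541, Zfp109, Zfp575 and Zfp42. Zfp42, known as Rex1, marks pluripotent cells, and its signal was 2.69 and 4.77 in untreated and 2.67 and 2.28 in OGD arrays. Among the 335 measured probes, 283 of 197 genes were well above background on all 4 arrays, 33 were not well above it on either OGD array, 18 on 1 of them, and 1 probe was in that position in untreated arrays. For a probe that is dim after OGD, the log2 difference depends on a signal close to background.

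Probes of Zfp genes gave lower signals than most, with a median untreated normalized log2 signal of −1.74 beside −1.14 over all genes, which describes the probes and does not rank the levels of the genes. When all measured genes were divided into 4 equal bins by their untreated signal, 110 of the 218 members (50.5%) fell in the second-dimmest bin and 16 (7.34%) in the brightest. Members were below other genes in each bin. In the second-dimmest the median log2 difference was −1.25 for members and 0.00 for 5095 genes with other names. In the brightest it was −0.29 for members and 0.43 for 5232 genes with other names. The dimmest bin held 20 members with a median of −0.61, and the third 72 members with a median of −0.94.

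**Figure D1:**
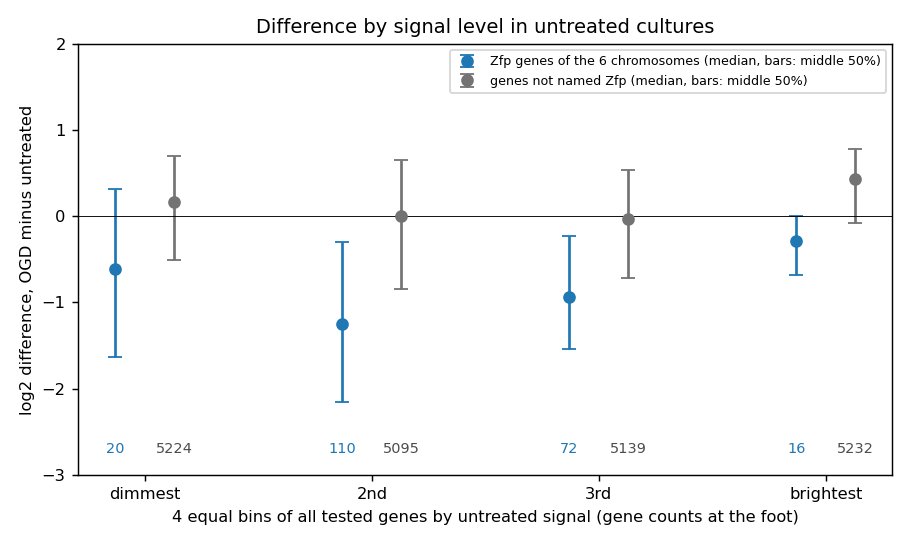
Log2 difference (OGD minus untreated, vertical axis) by bin of untreated signal (horizontal axis), with points at the median and bars over the middle 50% of genes. Members (blue) sit below genes not named Zfp (grey) in each bin, with the widest gap in the second-dimmest, −1.25 against 0.00. With spike-in scaling the values of both groups lie lower.

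The 6 chromosomes differed in how far their members lay below the other genes. Chromosome 7 held 93 members, by far the most, and its 90 measured genes had a median log2 difference of −0.63, with 66 below 0 and 24 above. Chromosome 17 held 43 members with a median of −1.42, and 37 of them were below 0. Chromosome 13 held 36 members with a median of −1.16 and 29 below 0. The 23 measured genes of chromosome 8 had a median of −0.51, and the 20 of chromosome 9 a median of −0.75. Chromosome 10 had only 6 members, all below 0, with a median of −1.54 and a range from −1.91 for Zfp938 to −0.86 for Zfp280b.

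With normexp background correction the order changed. Chromosome 13 was then nearest to 0, at −0.12, followed by chromosomes 9 (−0.16), 7 (−0.31), 8 (−0.35), 10 (−0.57) and 17 (−0.71).

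Other genes on the same chromosomes had medians above 0. Their median log2 difference was 0.23 on chromosome 7, 0.12 on chromosome 8, 0.10 on chromosome 9, 0.22 on chromosome 10, 0.17 on chromosome 13 and 0.15 on chromosome 17. The spread among members within a chromosome was wide, with an SD between genes of 1.34 log2 on chromosome 7, 1.37 on chromosome 13 and 1.06 on chromosome 17. The medians of chromosomes 7 and 17 kept apart in the pairings of single arrays, from −0.66 to −0.63 and from −1.58 to −1.37, while those of chromosomes 8 (−0.72 to −0.40) and 9 (−0.78 to −0.53) overlapped. These pairings share arrays and are not independent, so the ranges are a description. Zfp genes outside these chromosomes, 157 measured genes, had a median of −0.52, and the related name groups Zbtb (42 genes), Zscan (12 genes) and Zkscan (10 genes) had medians of −0.43, −0.57 and −0.95.

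**Figure D2:**
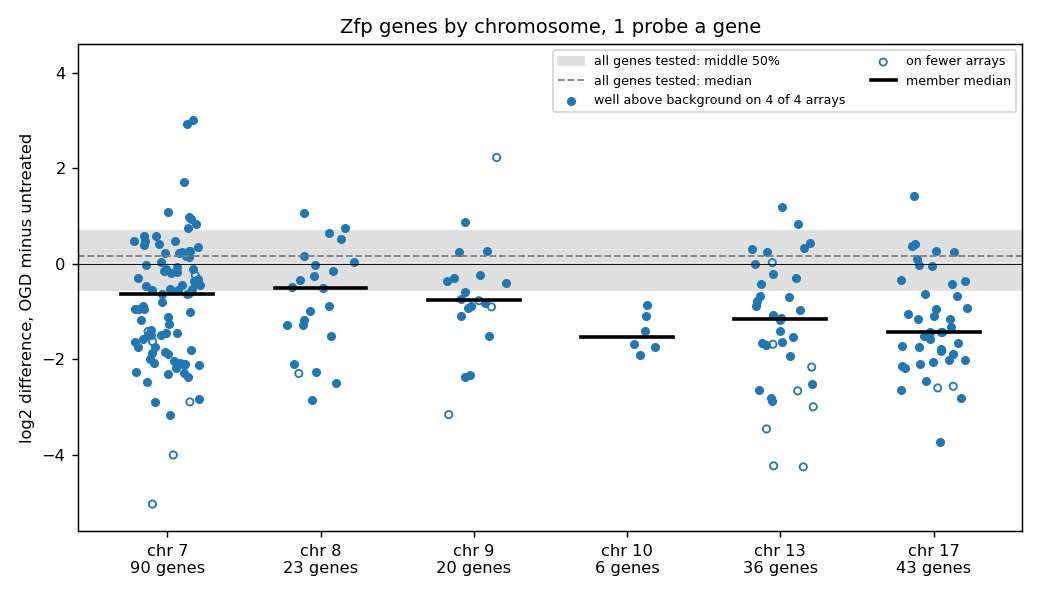
Each point is 1 Zfp gene, placed by chromosome (horizontal axis) and by log2 difference, OGD minus untreated (vertical axis). Black lines mark the member medians, from −0.51 on chromosome 8 to −1.54 on chromosome 10, and the grey band spans the middle 50% of all genes, −0.56 to 0.68. Open points were not well above background on all arrays. The vertical position is relative to the 75th percentile of each array, and with spike-in scaling the median over all members was −2.24.

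Members lying within 500 kb of the next were joined into clusters. This left 45 genes alone and placed 177 in 25 clusters of 2 or more. The 43 measured genes standing alone had a median log2 difference of −0.42, and 28 of them were below 0. The 17 genes in clusters of 2 or 3 had a median of −0.96, the 64 in clusters of 4 to 9 a median of −1.40, and the 94 in the 6 clusters of 10 or more a median of −1.17. The median of genes alone lay nearest to the 0.16 of all genes.

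The cluster with the most members lay on chromosome 13 between 67139715 and 67927746 (mm9), from Zfp712 to Zfp273, and held 23 genes in 788 kb. Its median log2 difference was −1.63, and 20 of the 23 genes were below 0. Several members of the cluster had signals near background after OGD, and this median includes them. With probes well above background on all 4 arrays only, the median of all chromosome 13 members was −0.93 instead of −1.16. Zfp459 gave 101 and 97.4 in untreated and 2.47 and 1.64 in OGD arrays, where it was not well above background, a difference of at least 5.75-fold. Zfp759 gave 136 and 126 in untreated and 3.76 and 1.93 in OGD arrays, at least 7.57-fold lower. Zfp455, next to it, gave 140 and 95.1 in untreated and 7.54 and 2.19 in OGD arrays, and only 1 OGD array was well above background. These values depend on the background method, since normexp gave log2 differences of −0.14 for Zfp459, −0.29 for Zfp759 and −0.25 for Zfp455, against −4.25, −4.23 and −3.46 with the deposited background subtraction. Zfp458, 45.7 kb beyond Zfp455, had a log2 difference of 0.33 ± 0.09 (SE), and Zfp738 the highest of the cluster by brightest probe, 0.44, while a dimmer probe of Zfp457 was at 1.51. Zfp85 and Zfp85os, which is named as its opposite strand transcript, lay together, were not well above background on either OGD array, and were at least 5.09-fold and 1.34-fold lower. The 8 other genes measured inside the cluster, among them Rsl1 and Rslcan18, had a median of −0.63. Rsl1 is itself a KRAB zinc finger gene under an older name, a regulator of sex-limited liver genes.

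The cluster on chromosome 17 between 21165104 and 23713036 held 21 genes from Zfp160 to Zfp13 over 2548 kb. Here 19 of 21 genes were below 0, with a median of −1.42. By brightest probe Zfp760 was the lowest, at 2029 and 2074 in untreated against 122 and 104 in OGD arrays, a log2 difference of −2.81 ± 0.08 (SE). Zfp948, 137 kb before it, was by the same measure the highest, at 865 and 718 in untreated against 803 and 814 in OGD arrays, so its signal overlapped before normalization and its log2 difference was 1.41 ± 0.15. The 21 other genes inside this span had a median of −0.03. The second cluster of this chromosome, 13 genes in 858 kb from Zfp871 to Zfp414, had the lowest median of the 6 large clusters, −1.89, while its 7 other genes had a median of 0.48.

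The cluster on chromosome 7 between 30562247 and 30946346 had a higher median. It held 15 genes from Zfp84 to Zfp146 in 384 kb, with a median of 0.14, and 7 of the 15 were below 0. Of its 24 measured probes, 8 passed the adjusted p-value limit as lower and 8 as higher, which is near the 27.1% and 37.9% of all probes. Signal before normalization was higher in both OGD arrays than in both untreated arrays for 5 of the 335 measured member probes. Among all measured probes the share was 5.45%. Of the 5 member probes, 3 belonged to this cluster, to Zfp382, Zfp383 and Zfp790. The other two were probes of Zfp872 on chromosome 9 and Zfp367 on chromosome 13.

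Zfp382 encodes a KRAB zinc finger repressor. Its probe gave 73.9 and 76.1 in untreated and 238 and 229 in OGD arrays, with a log2 difference of 3.01 ± 0.09 (SE), the highest of all member probes. Zfp383 gave 151 and 151 in untreated and 402 and 492 in OGD arrays, with a log2 difference of 2.93 ± 0.19. In both genes the groups lay far apart, and neither passed the fold limit of 10. Zfp790 gave 138 and 140 in untreated and 190 and 161 in OGD arrays with 1 probe (log2 difference 1.71 ± 0.08), while a probe farther downstream in it gave 222 and 229 against 57.3 and 54.0 (−0.65 ± 0.08). Zfp568, a KRAB repressor of a placental Igf2 transcript needed for embryonic development, had a log2 difference of 0.74 ± 0.08 and Zfp566 one of 0.95. Between Zfp790 and Zfp383 lay Zfp27, at 596 and 613 in untreated against 60.9 and 49.8 in OGD arrays (−2.08 ± 0.08), although its finger-coding probe shown above gave −0.04 ± 0.10. Zfp30, a neighbour of Zfp790, was also low, at 1724 and 1746 against 209 and 157 (−1.89 ± 0.11).

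**Figure D3:**
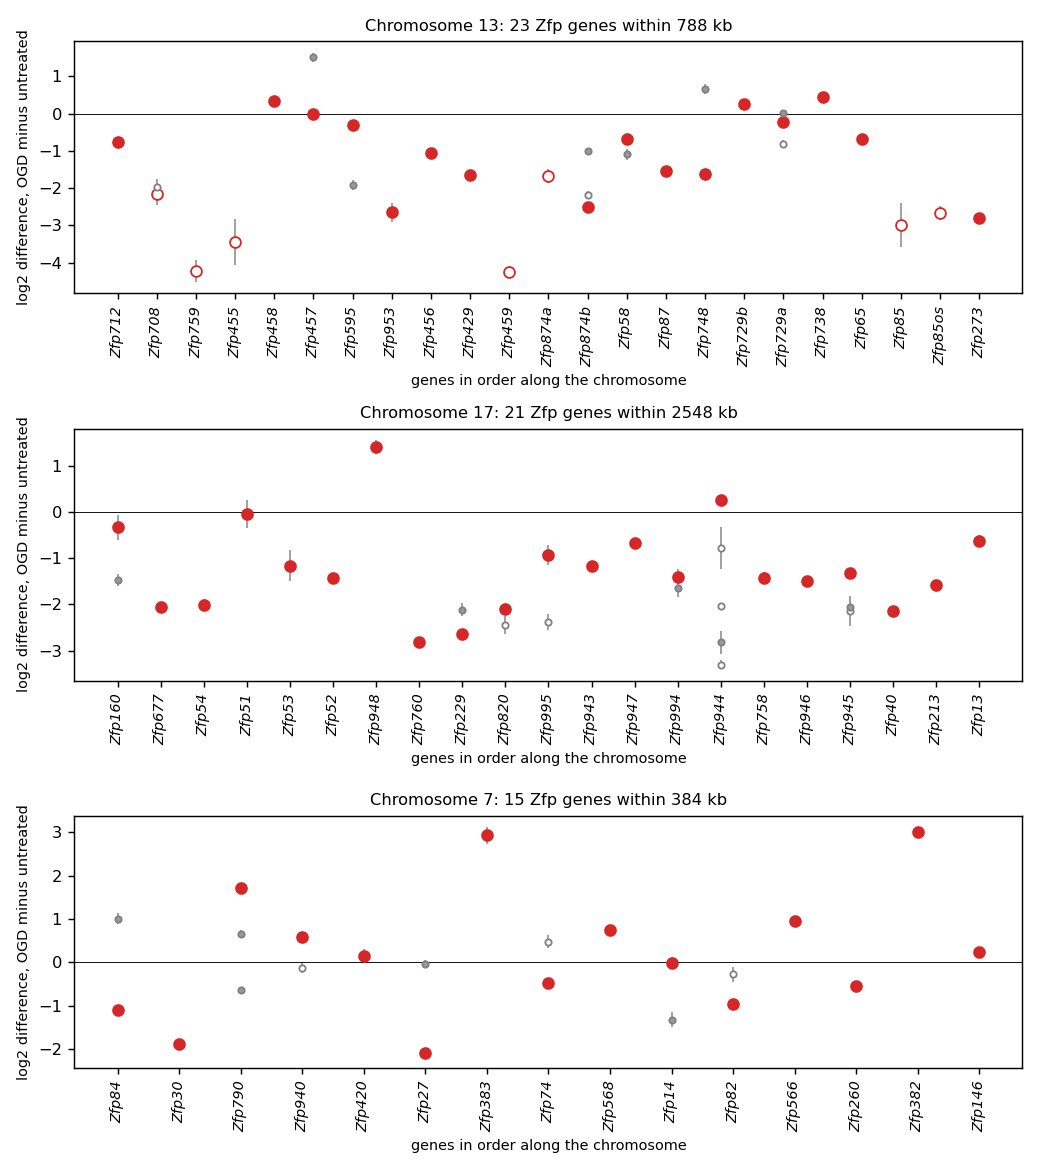
Log2 difference, OGD minus untreated (vertical axis, bars: SE from the fit), for each measured probe in the 3 clusters with the most Zfp genes, with genes in chromosomal order (horizontal axis). Large red points are the brightest probe of each gene, small grey points its other probes, and open points were not well above background on all arrays. In the chromosome 13 and 17 clusters 20 of 23 and 19 of 21 genes are below 0, and in the chromosome 7 cluster 7 of 15, with Zfp383 and Zfp382 near 3. With spike-in scaling all points lie lower and some above 0 turn below it.

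The median gap between neighbours within 500 kb was about that between members far apart. Over 718 pairs of genes within 500 kb, the median absolute gap between their log2 differences was 1.21 (25th to 75th percentile 0.57 to 2.06). It was 1.19 over 5278 pairs farther apart on the same chromosome and 1.17 over 17657 pairs on different chromosomes. It was smaller for the 149 pairs standing directly next to each other, with a median spacing of 37.4 kb, at 0.93, and their values had a Pearson correlation of 0.25 and a Spearman correlation of 0.27. These pairs share genes with one another and shared probe sequence may add to the likeness, so the correlation is a description. Of the 149, 45 pairs lay within 0.5 log2 of each other and 27 were more than 2 apart. The widest gap between immediate neighbours was 5.01 log2, between Zfp27 and Zfp383, whose probes start 22.2 kb apart, by the brightest probe of each gene. The other probe of Zfp27, at −0.04, would make it smaller. Zfp948 and Zfp760 came next with 4.22, then Zfp560, which was well above background on 1 OGD array only, and Zfp26 on chromosome 9 with 4.04. A downstream probe of Zfp26, not well above background on either OGD array, was at −0.86 and would make that gap smaller.

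A small number of members passed both of the study's limits, an adjusted p-value under 0.05 and a change over 10-fold, here with limma in place of the t-test of the methods. There were 7 lower probes, where 0.524% of all probes were called, and 0 higher ones, where 0.81% were. Since 5 of the 7 were not well above background on at least 1 OGD array, their folds are bounds or rest on 1 array. Zfp324 gave 208 and 195 in untreated and 1.98 and 2.87 in OGD arrays, at least 11.7-fold lower. Zfp473, a component of the machinery that processes histone mRNA ends, gave 166 and 179 against 6.74 and 2.56, at least 9.68-fold lower. With normexp background correction the log2 differences of Zfp324 and Zfp473 were −0.77 and −0.60. Zfp459, Zfp759 and Zfp455 of the chromosome 13 cluster are described above. With the methods' t-test 6 probes passed both limits as lower, and Zfp455 did not pass with that test or with normexp. Its normalized log2 signals were −3.93 and −4.51 in untreated and −6.88 and −8.47 in OGD arrays, so its fold moves with any array left out. The remaining pair was bright enough on all arrays. Zfp563 gave 399 and 436 in untreated and 12.7 and 11.54 in OGD arrays, 13.3-fold lower (log2 difference −3.73 ± 0.09), and the downstream probe of Zfp949 was 19.0-fold lower. Just outside the fold limit lay probes of Zfp882 (−3.28) and Zfp235 (−3.17), and a probe of Zfp944 that was not well above background on either OGD array and at least 7.24-fold lower. Under normexp background correction 0 member probes passed both limits, and with spike-in scaling 73 did as lower, out of 1158 such probes in all.

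Among probes well above background on all arrays, the largest decreases after Zfp949 and Zfp563 were those of Zfp882 (−3.28 ± 0.14) and Zfp709 (−2.85 ± 0.16), members of 1 cluster on chromosome 8, of Zfp235 (−3.17 ± 0.11) and Zfp108 (−2.84 ± 0.10), members of 1 cluster on chromosome 7, and of Zfp784 (−2.90 ± 0.14). Zfp523, a relative of the activator Zfp143, gave 346 and 323 in untreated and 15.0 and 17.6 in OGD arrays with 1 probe (−2.99 ± 0.17) and −1.05 ± 0.09 with a brighter one. Zfp825 on chromosome 13 (−2.86 ± 0.11) and Zfp944 on chromosome 17 (−2.82 ± 0.25) completed the 10. In each of these probes both OGD arrays lay below both untreated arrays. Normexp background correction kept their direction and made them smaller, for example −1.98 for Zfp949, −1.60 for Zfp563, −1.03 for Zfp882, −0.79 for Zfp709 and −0.78 for Zfp825.

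Beyond the chromosome 7 cluster, among probes well above background on all arrays, those with the largest increases had signals before normalization that were similar or lower after OGD, apart from Zfp367. Zfp367 gave 89.4 and 84.4 in untreated and 92.2 and 129 in OGD arrays with 1 probe (1.70 ± 0.26) and 0.84 ± 0.07 with a brighter one. Zfp457 (1.51 ± 0.12), Zfp948 and Zfp266 (1.31 ± 0.09) followed, then Zfp369 (1.19 ± 0.08), Zfp787 (1.16 ± 0.20) and Zfp628 (1.09 ± 0.11). With spike-in scaling, the differences of Zfp628, Zfp787 and Zfp369 turned below 0, to −0.20, −0.13 and −0.10, those of Zfp266, Zfp948 and Zfp457 shrank to 0.02, 0.12 and 0.22, and Zfp382 and Zfp383 were at 1.72 and 1.64. Quantile normalization lowered Zfp628 to 0.24. Zfp872, dim in both untreated arrays at 6.22 and 3.78 against 8.22 and 9.31 after OGD, was at least 3.32-fold higher on the normalized scale.

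**Figure D4:**
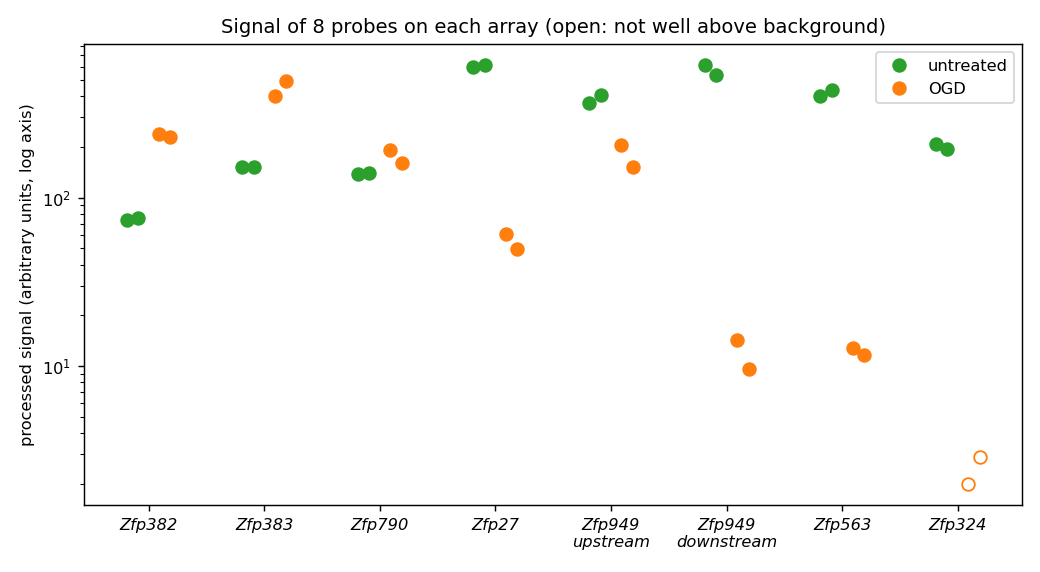
Processed signal (log axis, arbitrary units) of 8 probes on each of the 2 untreated (green) and 2 OGD (orange) arrays; signals of different probes cannot be ranked. Zfp382 and Zfp383 are higher in both OGD arrays, the downstream Zfp949 probe falls from 536 to 614 in untreated arrays to 9.64 to 14.2, and Zfp324 (open points) is not well above background after OGD.

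Some members with a known function, picked after their values were seen, are given singly. Zfp809, which silences retroviral DNA through the primer binding site, gave 1056 and 1087 in untreated and 156 and 137 in OGD arrays with its brightest probe (−1.50 ± 0.07). A second probe, 100 bases upstream in the transcript record, gave 514 and 474 against 205 and 169 (−0.03 ± 0.09). Zfp445, which maintains parental imprints, had a log2 difference of −0.73 ± 0.08. Zfp57, its better-known counterpart, was dim, at 21.2 and 21.3 in untreated and 9.52 and 10.4 in OGD arrays (0.28 ± 0.14).

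Zfp110, a partner of the neurotrophin receptor p75, gave 795 and 871 in untreated and 133 and 100 in OGD arrays (−1.48 ± 0.11). Zfp423, a cofactor of developmental signalling and of early B cell factors, had 3 probes at −0.98, −0.90 and −0.17. Zfp143, an activator that binds many promoters, had a pair of probes at 0.83 ± 0.10 and 1.07 ± 0.11. Zfp536, a repressor of neuronal differentiation genes, had log2 differences of 0.48 and 0.44 with its 2 probes. The RNA-binding members Zfp36 and Zfp36l2 were at 0.27 ± 0.15 and 0.37 ± 0.08, near the middle of all genes.

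The probes of a gene often differed, with the downstream probe usually the lower. Of 89 member genes with 2 or more measured probes, 30 had probes more than 1 log2 apart and 20 had probes on both sides of 0. Members and other genes were compared by the most upstream and the most downstream probe on 1 transcript record. Gaps over 1 log2 occurred in 21 of 75 such pairs of members and in 996 of 3887 of other genes. Wide gaps were thus not particular to members. No share of other genes is given for probes on both sides of 0. The member with the clearest difference was Zfp949. Its upstream probe, starting at base 856 of the transcript record, gave 363 and 404 in untreated and 204 and 152 in OGD arrays (0.25 ± 0.12). Its downstream probe, starting at base 3255, gave 614 and 536 against 14.2 and 9.64 (−4.24 ± 0.17), and the arrays of a group lay close together for both.

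Zfp944 had 5 measured probes, of which 2 were well above background on all arrays, at 0.26 and −2.82. The probe starting at base 808 gave 646 and 704 in untreated and 352 and 275 in OGD arrays, and the probe starting at base 2443 gave 403 and 298 against 23.8 and 15.0. Zfp369 was at 1.19 with its probe at base 967, and its probe at base 2683, not well above background on either OGD array, was at least 1.21-fold lower. Zfp81 had 4 probes from 0.09 to −2.55, the lowest being the farthest downstream, and Zfp646 had 3 from 0.48 to −1.88.

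Over the 75 pairs of the most upstream and the most downstream probe on 1 transcript record, the upstream probe had the higher log2 difference in 60 pairs (80.0%), with a median gap of 0.48. For the 45 pairs at least 1000 bases apart it was higher in 39 (86.7%), with a median gap of 0.68, and for the 30 closer pairs in 21, with a median of 0.27. Among 3887 pairs of other genes the upstream probe was higher in 74.0%, with a median gap of 0.32. It was higher in 85.0% of those at least 1000 bases apart, with a median gap of 0.74, and in 64.0% of the closer ones, with a median gap of 0.12. Among the 52 member pairs with both probes well above background on all arrays it was higher in 42. The exceptions included Zfp457, at −0.01 upstream and 1.51 only 98 bases downstream, and Zfp81 with its probes on 1 record at −0.84 and 0.09. Each value is thus that of 1 stretch of a transcript, and whether RNA integrity, transcript ends or labelling differed between the groups was not tested.

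**Figure D5:**
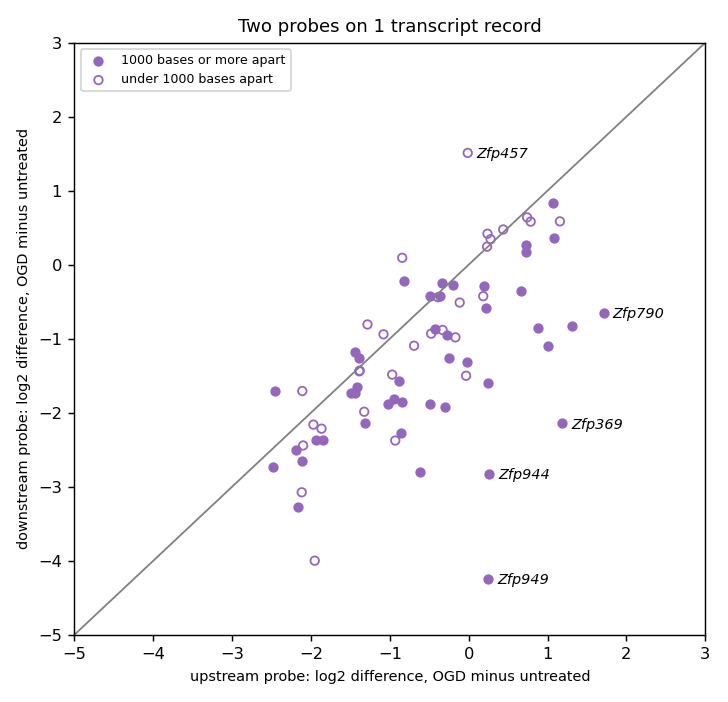
Log2 difference (OGD minus untreated) of the most upstream probe (horizontal axis) against that of the most downstream probe (vertical axis) on the same transcript record for 75 records, with a line of equality. Most points lie below the line, 60 of 75, with Zfp949 (0.25 and −4.24) the farthest from it. With spike-in scaling both axes shift by the same amount and the gaps stay.

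The corepressor genes through which KRAB proteins act lay on both sides of 0. All 29 genes of the list were measured, and with the brightest probe of each the median log2 difference was −0.04. The values below are those of the brightest probes. The genes had 47 measured probes in all, the lowest at −4.19, and 1 of these passed both limits as lower. Of the 29, 9 passed the adjusted p-value limit of the fit (limma) as lower, 9 as higher and 11 in neither direction, not far from the 27.1% lower and 37.9% higher among all probes. Trim28, the direct partner of the KRAB domain, gave 5881 and 6289 in untreated and 2159 and 2104 in OGD arrays (−0.14 ± 0.10) and did not pass. Setdb1, the histone H3 lysine methyltransferase of the complex, was lower (−0.69 ± 0.09), as were its partner Atf7ip (−2.17 ± 0.10), the DNA methyltransferase Dnmt3a (−2.29 ± 0.08) and the remodeller Chd4 (−2.03 ± 0.11). The remodeller Smarcad1 (−1.99 ± 0.10) and Fam208a (−1.57 ± 0.09), a subunit of the HUSH silencing complex, were also lower, and Atrx, Dnmt1 and Uhrf1 made up the 9. The heterochromatin protein genes Cbx5 (0.94 ± 0.09) and Cbx3 (0.50 ± 0.08) were higher and Cbx1 did not pass (−0.02 ± 0.08). The histone chaperone gene Rbbp4 was also higher (0.95 ± 0.08). Mta1 (0.95 ± 0.08), Rbbp7 (0.79 ± 0.09), Suv39h2, Hdac2, Chd3 and Ehmt2 made up the 9 higher genes. With spike-in scaling each of these values lies lower, and those of the higher genes turn below 0.

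Promoter sequence was compared with the RefSeq promoters of the GRCm38.p6 build, each covering 250 bases before and 50 after the transcript start. They matched 195 of the 222 genes with 230 promoters. Member promoters had a median of 12 CG dinucleotides and 54.3% GC, beside 7 and 52.7% over all 32851 promoters. The letters CCGGAAG, the core of ETS factor sites, were found on either strand in 23.0% of member promoters and 8.86% of all, and TGACG, part of the site of CREB-type factors, in 33.0% and 20.8%. ATGGCGGC, a core of YY1 sites, was found in 6.09% and 2.24%, CTACAANTC, a core of Zfp143 sites, in 4.35% and 1.42%, GGGCGG in 41.3% and 35.7%, and TATAAA in 7.39% and 13.6%. ACGTG or GCGTG, the core letters of sites for the hypoxia-inducible factors, were found in 48.7% of member promoters and 43.8% of all. The median log2 difference was higher for member genes with the letters than for those without them for the hypoxia core (−0.77, 97 genes, and −1.42, 95 genes), TGACG (−0.82 and −1.07) and GGGCGG (−0.89 and −1.14). It was lower with the letters for CCGGAAG (−1.27 and −0.95), ATGGCGGC (−1.64 and −0.95), CTACAANTC (−1.81 and −0.95) and TATAAA (−1.0997 and −0.95). These splits were not tested and were not made over all genes. A match of letters is a description and not a binding site.

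The first 250 bases of 6 promoters, those before the transcript start, are shown for Zfp382 and Zfp383, the highest members of the chromosome 7 cluster, for their low neighbour Zfp27 and for 3 genes with large decreases. Capitals mark ACGTG or GCGTG on either strand. For Zfp27, which has 2 promoters in the table, the first listed is given.
Zfp382, chr7:30121682-30121931 (GRCm38.p6, + strand): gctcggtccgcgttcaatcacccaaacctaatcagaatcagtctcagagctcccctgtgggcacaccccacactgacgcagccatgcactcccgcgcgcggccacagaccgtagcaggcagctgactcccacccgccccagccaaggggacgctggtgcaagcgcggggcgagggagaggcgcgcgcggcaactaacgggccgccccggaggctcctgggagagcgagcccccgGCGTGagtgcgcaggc
Zfp383, chr7:29908267-29908516 (GRCm38.p6, + strand): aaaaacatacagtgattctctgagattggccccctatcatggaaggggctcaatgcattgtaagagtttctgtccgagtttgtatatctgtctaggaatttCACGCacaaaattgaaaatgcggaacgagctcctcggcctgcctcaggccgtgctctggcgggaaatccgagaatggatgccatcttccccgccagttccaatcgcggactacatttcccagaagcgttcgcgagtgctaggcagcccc
Zfp27, chr7:29906533-29906782 (GRCm38.p6, − strand): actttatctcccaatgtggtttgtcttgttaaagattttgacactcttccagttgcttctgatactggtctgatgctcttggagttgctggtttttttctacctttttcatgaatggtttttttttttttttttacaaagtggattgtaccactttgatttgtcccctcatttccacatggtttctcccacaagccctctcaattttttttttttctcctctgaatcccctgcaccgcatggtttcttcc
Zfp949, chr9:88547770-88548019 (GRCm38.p6, + strand): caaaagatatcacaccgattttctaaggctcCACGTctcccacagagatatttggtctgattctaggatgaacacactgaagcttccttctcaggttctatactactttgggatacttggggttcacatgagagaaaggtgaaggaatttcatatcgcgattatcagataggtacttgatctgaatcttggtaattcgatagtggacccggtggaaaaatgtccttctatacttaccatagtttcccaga
Zfp563, chr17:33089117-33089366 (GRCm38.p6, + strand): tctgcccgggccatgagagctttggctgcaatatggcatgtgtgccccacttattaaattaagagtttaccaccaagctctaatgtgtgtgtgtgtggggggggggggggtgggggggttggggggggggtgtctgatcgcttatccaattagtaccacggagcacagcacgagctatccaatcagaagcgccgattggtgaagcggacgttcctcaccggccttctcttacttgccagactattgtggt
Zfp324, chr7:12965588-12965837 (GRCm38.p6, + strand): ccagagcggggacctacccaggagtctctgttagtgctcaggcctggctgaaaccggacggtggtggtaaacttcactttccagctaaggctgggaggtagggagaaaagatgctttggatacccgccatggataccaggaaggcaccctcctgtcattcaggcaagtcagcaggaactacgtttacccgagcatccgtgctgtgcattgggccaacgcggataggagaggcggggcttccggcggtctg
The core letters stood in the windows of Zfp382, Zfp383 and Zfp949 and not in those of Zfp27, Zfp563 and Zfp324.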

How the data were processed

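RNA of 2 untreated and 2 OGD astrocyte-enriched cultures was hybridised to 1-colour (Cy3) Agilent mouse arrays. The authors deposited scanner files made with Agilent Feature Extraction 11.5.1.1 (per the labels), which hold the processed intensity of each spot after background subtraction, and a table of the same intensity values, with probe positions on mm9. Depth does not apply to arrays, and the number of arrays limits the precision. Outlier spots were left out, spots of a probe averaged, and log2 intensity scaled to each array's 75th percentile, as the study did. A probe was measured when at least 0.5 of its spots were well above background on both arrays of a group. Groups came from the sample titles. The 28258 probes were fitted with limma 3.58.1 in R 4.3.3 (lmFit, eBayes, Benjamini-Hochberg, limit 0.05), and tested on simulated data, where 176 of 200 probes shifted by 4 log2 were found again. Errors are SE from this fit. An "at least" fold sets the bright group's mean against the probe's own signal on each dim array or, if that is lower, the dimmest signal that still counted there as well above background. Similar probes were searched with blastn 2.17.0. The named genes are the 10 largest increases and decreases among probes well above background on all arrays, members past both limits, members of the 3 largest clusters, the 5 genes whose probes differ most, the 5 largest bounds, and up to 6 corepressor genes of the largest change among those past the limit; genes named otherwise (for a known function, as neighbours, such as Zfp560 and Zfp26, or for a signal higher before normalization, such as Zfp872, and the remaining corepressor genes), and the sequences shown, were chosen after their values were seen. The members and lists were chosen with earlier results of these data known. Alternatives tried were another background correction, normalization, filter, probe rule and test, a replicate block, and each array left out.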

Additional observations from a re-analysis of the deposited data

How the results depend on the processing

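Over the alternatives, the members' median log2 difference and that of each chromosome stayed below 0 and no member probe passed both limits as higher. With normexp background correction, 120 probes were higher past the adjusted p-value limit and 0 lower past both limits, the median over genes was −0.31, the neighbour gap 0.85, and the medians of chromosomes 7, 8, 9, 10, 13 and 17 were −0.31, −0.35, −0.16, −0.57, −0.12 and −0.71. With spike-in scaling, 4 probes were higher past the adjusted p-value limit and 73 lower past both limits, the median was −2.24, and the chromosome medians, in the same order, −1.92, −1.80, −2.04, −2.83, −2.45 and −2.71. The log2 differences of Zfp628, Zfp787 and Zfp369 reversed there, to −0.20, −0.13 and −0.10. With probes well above background on all 4 arrays only, 2 were lower past both limits, the median was −0.89, the neighbour gap 1.0999, and chromosomes 7 and 13 were at −0.59 and −0.93. Quantile normalization put chromosomes 7 and 8 at −0.75 and −0.83, and no filter on dim probes put chromosome 7 at −0.62. With the mean over a gene's probes the median was −1.05, the neighbour gap 1.0996, and chromosomes 7 and 17 were at −0.65 and −1.57. With the probe brightest in the untreated arrays, a choice added like the next after seeing the data, the median was −0.9993 and chromosome 13 was at −1.29, and with the one brightest in the OGD arrays chromosome 9 was at −0.50. Neighbours within 100 kb had a gap of 0.98.

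Leaving out 1 array gave 172 to 231 lower and 25 to 49 higher probes, where 17.1% to 28.8% and 20.8% to 39.0% of all probes were called, and 6 to 11 lower past both limits (11 without OGD replicate 1), 25 higher without untreated replicate 2 and 27 without untreated replicate 1. It gave a median of −0.98 to −0.94 and a neighbour gap of 1.16 to 1.30. The chromosome medians ranged from −0.65 to −0.62 (7), −0.69 to −0.48 (8), −0.77 to −0.54 (9), −1.69 to −1.39 (10), −1.31 to −1.14 (13) and −1.54 to −1.39 (17). The t-test of the study's methods, on the same values, gave 177 lower and 35 higher probes after Benjamini-Hochberg adjustment (18.8% and 26.0% of all probes). Same-numbered samples did not deviate together (r = −0.057). With 2 arrays in a group this cannot tell whether same-numbered samples came from 1 culture, and the labels do not say. A fit with a replicate block gave 216 lower and 42 higher probes (25.8% and 35.1% of all probes). Of the named probes, Zfp455 and Zfp459 no longer passed the adjusted p-value limit with normexp, Zfp266, Zfp948, Zfp457 and Zfp367 with spike-in scaling, Zfp628 with quantile normalization, and Zfp787, Zfp367 and Zfp455 with the t-test. Nor did Zfp787 and Zfp455 without untreated replicate 1 or Zfp367 without untreated replicate 2. The cause of these shifts was not tested, except that spike-in scaling lowers all probes alike and normexp adds an offset of 50.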
